A study of Homo sapiens with 8 samples.

Results

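Short loci of the deposited tables, each spanning less than 1 kb and carrying a name that begins with LXLOC, were followed in HepG2 and LM3 cells with and without JQ1. A locus was taken where its span (end minus start plus 1) was under 1000 bp and its mean was at least 0.5 FPKM over the 4 libraries of each cell line. FPKM is the number of fragments per kilobase of transcript, scaled to the fragments of the library. Loci at the histone gene region of chromosome 6, at a stretch of chromosome 1 around 1q21 and at ribosomal DNA were left out. This rule acted on the primary sequences only: LXLOC_057824 and LXLOC_057825, numbered within the same interval on an alternate sequence of chromosome 1, and LXLOC_057947 and LXLOC_057948, likewise on an alternate of chromosome 6, were kept. This gave 762 loci of the 15469 with values. Of 1436 such short loci listed, 33 had a dash in place of values and 1403 had values. Of these, 789 passed the level rule in both lines, 150 in HepG2 alone, 333 in LM3 alone and 131 in neither. Position removed 27 of the 789, 12 on chromosome 6, 9 on chromosome 1 and 6 in ribosomal DNA.

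HepG2 and LM3 are human hepatocellular carcinoma cell lines. The study has 4 groups of 2 libraries: each line was given either the vehicle DMSO or JQ1, an inhibitor of BET bromodomains. Neither dose nor duration is given in the labels, and nothing says that the 2 libraries of a group came from separate cultures: p-values thus rest on library spread that may be purely technical. Total RNA was sequenced in pairs of reads after ribosomal RNA was depleted.

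Many transcripts of this size are made outside annotated genes: enhancer RNAs, upstream antisense transcripts that leave a promoter in the direction opposite to its gene, pieces of introns, extensions past the end of a gene, and small structured RNAs with their flanks. BET proteins bind acetylated histones at promoters and enhancers and help RNA polymerase II pass from pausing to elongation. JQ1 occupies their bromodomains and releases them from chromatin.

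The sequences below show the kinds of DNA that responding or abundant short loci lie on, all on GRCh38. LXLOC_032298, higher with JQ1 in both lines, covers most of RNU2-63P (chr2:88016354-88016547, minus strand), a pseudogene of the U2 spliceosomal RNA. Its GENCODE 29 transcript is printed with that of the U2 gene RNU2-1 (chr17:43233787-43233977, minus strand), with capitals at bases that differ or have no partner in the alignment.
RNU2-63P: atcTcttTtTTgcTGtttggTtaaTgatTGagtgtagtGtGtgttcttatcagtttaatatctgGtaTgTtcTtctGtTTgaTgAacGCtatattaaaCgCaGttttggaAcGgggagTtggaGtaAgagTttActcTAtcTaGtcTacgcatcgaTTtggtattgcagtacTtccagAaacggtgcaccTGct
RNU2-1: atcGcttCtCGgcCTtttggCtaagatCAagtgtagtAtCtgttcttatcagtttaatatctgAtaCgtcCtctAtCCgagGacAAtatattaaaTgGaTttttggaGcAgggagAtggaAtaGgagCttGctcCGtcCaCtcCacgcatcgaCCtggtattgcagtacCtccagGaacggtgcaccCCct
Of 191 aligned bases, 150 were identical (78.5%), with 3 further bases opposite gaps.

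The next sequences are the 250 bases before the RefSeq start (GRCh38.p14) of 3 coding genes whose promoter a called locus enters, with the bases inside that locus in capitals. LXLOC_048558 runs opposite to IRAK1BP1, which encodes a partner of the kinase IRAK1, and LXLOC_034242 lies on the same strand as MRGBP, a subunit of the NuA4 histone acetyltransferase complex. LXLOC_055043 runs opposite to NOL6, which encodes a nucleolar protein of ribosome assembly.
IRAK1BP1 (chr6:78867301-78867550, plus strand): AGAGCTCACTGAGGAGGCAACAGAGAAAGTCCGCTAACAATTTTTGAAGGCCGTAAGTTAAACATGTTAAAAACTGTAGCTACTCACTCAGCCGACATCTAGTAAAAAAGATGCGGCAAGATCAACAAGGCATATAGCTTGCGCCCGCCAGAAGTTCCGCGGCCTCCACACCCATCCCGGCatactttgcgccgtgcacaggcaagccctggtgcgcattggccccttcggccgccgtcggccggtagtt
MRGBP (chr20:62796223-62796472, plus strand): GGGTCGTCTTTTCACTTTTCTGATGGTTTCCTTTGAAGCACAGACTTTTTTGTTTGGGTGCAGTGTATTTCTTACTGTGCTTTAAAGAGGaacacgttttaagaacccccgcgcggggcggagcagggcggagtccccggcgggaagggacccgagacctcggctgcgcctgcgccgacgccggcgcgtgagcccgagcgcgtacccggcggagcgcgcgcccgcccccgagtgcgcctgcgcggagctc
NOL6 (chr9:33473925-33474174, minus strand): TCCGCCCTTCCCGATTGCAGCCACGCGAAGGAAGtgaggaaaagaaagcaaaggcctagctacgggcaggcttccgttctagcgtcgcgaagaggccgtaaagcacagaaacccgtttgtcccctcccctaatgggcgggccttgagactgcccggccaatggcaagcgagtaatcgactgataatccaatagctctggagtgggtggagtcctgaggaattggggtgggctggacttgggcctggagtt

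The last pair shows why some values are uncertain. LXLOC_002800 lies over MTATP6P1, a nuclear copy of the mitochondrial ATP synthase subunit gene MT-ATP6, and a stretch of 120 bases inside it (chr1:633824-633943, plus strand) is set beside the mitochondrial bases (chrMT:8655-8774, plus strand), with capitals at differences.
MTATP6P1: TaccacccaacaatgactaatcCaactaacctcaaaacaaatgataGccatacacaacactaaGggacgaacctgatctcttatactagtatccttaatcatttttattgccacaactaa
MT-ATP6: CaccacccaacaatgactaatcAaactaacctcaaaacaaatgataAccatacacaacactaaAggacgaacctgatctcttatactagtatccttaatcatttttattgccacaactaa
Counted from the first base printed, with the mitochondrial base first, the differences were C1T, A23C, A47G and A64G.

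The 762 loci spanned 203 to 997 bp, with a median of 488 bp, and 387 lay on the plus strand and 375 on the minus strand. Their FPKM summed to between 12.9% and 13.4% of each HepG2 library's FPKM, and to between 14.7% and 15.5% in LM3. The median of the loci's mean levels was 1.5 FPKM in HepG2 and 1.67 FPKM in LM3, and 88 and 107 loci reached 10 FPKM. At the length limit, LXLOC_009181 and LXLOC_026095 were inside at 997 bp and LXLOC_052681 was outside at 1000 bp. At the level limit, LXLOC_013185 was inside with a HepG2 mean of 0.50 FPKM and LXLOC_024938 outside with 0.495 FPKM. The depth behind the values is unknown, because the files give FPKM without counts.

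The label of unannotated loci held for most but not all. Of the 619 loci on chromosomes, 372 overlapped no GENCODE 29 gene on either strand, 188 overlapped a gene on their own strand and 59 overlapped one on the opposite strand only. A same-strand exon was overlapped by 8 of the 188. The other 143 lay off the chromosomes, 123 on patch or alternate sequences (33 of them on alternates of the MHC) and 20 on unplaced scaffolds, where no gene was looked up. Values of loci that overlap another locus, lie antisense to a gene or have near-identical copies are uncertain, since no source used here states the counting rule or its strand setting. There were 378 loci with no overlap of another listed locus on either strand or of an annotated gene on their own strand.

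Liver lncRNAs were taken as a check on the lines. Of 8 hepatocyte lncRNAs, 5 had values, and they summed to 8.33 to 8.41 FPKM in HepG2 with vehicle, 1.85 to 1.96 with JQ1, 1.98 to 2.02 in LM3 with vehicle and 0.76 to 0.79 with JQ1. CPS1-IT1 was the larger part of the sum in HepG2 with vehicle, at 6.84 and 6.79 FPKM, but in the second LM3 JQ1 library it stood at 0.26 FPKM, below LINC02428 at 0.45 FPKM, while LINC01018 and A1BG-AS1 stayed under 0.1 FPKM in every library. Of 5 lncRNAs of other cell types, 4 had values, with sums between 1.15 and 1.81 FPKM over the 8 libraries. In LM3 these sums were 1.34 to 1.81 FPKM with vehicle and 1.28 to 1.48 FPKM with JQ1. The hepatocyte sum was thus little higher in LM3 with vehicle and lower with JQ1, so the check did not mark LM3 as liver-derived. In bulk RNA, fewer cells of a type and less RNA per cell cannot be told apart.

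The most abundant locus, LXLOC_057447 on a patch sequence, differed most between the lines. It stood at 2.18 and 2.17 FPKM in the HepG2 vehicle libraries and at 346 and 374 FPKM in those of LM3. The tables may have been normalized separately, so levels set across lines are descriptions. With vehicle, 14 of 762 loci were at least 4-fold higher in LM3 on the FPKM + 0.5 scale, 3 were at least 4-fold higher in HepG2, and 665 were within 2-fold.

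Of the other abundant loci, LXLOC_057951, LXLOC_057441 and LXLOC_017397 were called in neither line, and LXLOC_036644, described below, was higher in both. LXLOC_017397 overlaps the lncRNA AC007262.2 on its own strand and lies opposite the thyrotropin receptor gene TSHR. In HepG2 it read 84.8 and 80.2 FPKM with vehicle and 77.9 and 89.5 FPKM with JQ1, and its groups overlapped. In LM3 it read 127 and 128 FPKM against 105 and 94.3 FPKM, with groups apart (limma adjusted p 0.0573). LXLOC_015879 on chromosome 14 fell in LM3 from 110 and 123 FPKM to 88.5 and 84.7 FPKM (limma adjusted p 0.0415), a call lost after median centring and in limma without trend and robust fitting, while HepG2 read 84.6 and 79.6 FPKM against 78.1 and 83.8 FPKM with overlapping groups.

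LM3-high loci included a set on chromosome 18. LXLOC_026154 had mean vehicle levels of 0.285 FPKM in HepG2 and 39.8 FPKM in LM3, LXLOC_026155 of 1.53 and 52.0 FPKM, and LXLOC_026160 of 0.685 and 21.6 FPKM. The 3 HepG2-high loci were LXLOC_057991, at 10.9 FPKM against 0 in LM3, LXLOC_031205, at 39.0 against 2.83 FPKM, and LXLOC_027638 near SULT2A1, at 6.48 against 0.760 FPKM. SULT2A1 encodes a hepatic sulfotransferase of steroids and bile acids.

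With the values as deposited, more short loci were called higher than lower with JQ1 in HepG2. Of the 762, 119 passed the threshold (limma, adjusted p under 0.05), 72 higher and 47 lower, where 25.1% of the 5906 loci tested were called. The share of short loci called was thus 15.6%, below that background. By direction, 9.45% were called higher, against 10.8% of all loci tested, and 6.17% lower, against 14.2%. The median change of the short loci was 0.08 on the log2(FPKM + 0.5) scale, against -0.01 over all loci tested. Among the called loci the changes ran from -1.54 to 2.27.

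The largest HepG2 rise was at LXLOC_000968 (chr1:66425465-66425774), 50.9 kb from PDE4B, a cyclic AMP phosphodiesterase gene. It stood at 1.85 and 2.52 FPKM with vehicle and at 14.1 and 10.8 FPKM with JQ1. The groups did not overlap, and the change was 2.27 ± 0.19 (SE, log2), with a limma adjusted p of 0.0071. The call was not made with no filter on low values. In LM3 the locus also rose with groups apart, from 2.62 and 0.86 FPKM to 7.99 and 5.54 FPKM, but was not called (limma adjusted p 0.0544). LXLOC_004089 on chromosome 1 rose from 0.420 and 0.0900 FPKM to 1.74 and 1.21 FPKM, a change of 1.41 ± 0.27 (SE, log2, limma adjusted p 0.0268). Its HepG2 vehicle mean was 0.255 FPKM, so it passed the level rule in HepG2 through its JQ1 group. In LM3 it read 1.10 and 0.81 FPKM against 2.07 and 1.42 FPKM (limma adjusted p 0.0896). LXLOC_057825, on the alternate sequence of chromosome 1 named above, rose from 9.49 and 7.60 FPKM to 21.2 and 23.3 FPKM (limma adjusted p 0.00838). It was called higher in LM3 too, from 5.85 and 5.99 FPKM to 11.5 and 12.9 FPKM (limma adjusted p 0.00913).

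The largest HepG2 falls included LXLOC_055632 (chr9:104143646-104143874), 2.23 kb downstream of SMC2, which encodes a condensin subunit. It stood at 2.70 and 3.85 FPKM with vehicle and 0.730 and 0.890 FPKM with JQ1. Its groups were apart, and it fell by 1.51 on the log2 scale (SE 0.18, limma adjusted p 0.0110).

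Leaving out any 1 HepG2 library lowered the count by over 1.5 times, and the count over all loci tested fell as well. The median change of the short loci was 0.12 without vehicle replicate 1 and 0.02 without vehicle replicate 2. Over all loci tested it was 0.02 and -0.04. Without either JQ1 library no short locus was called, and no locus of the whole table was, with 199 and 175 short loci at an unadjusted limma p under 0.05. The full data had 235 at that level, where 40.2% of all loci tested were.

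In LM3, rises and falls were about equal in number. Of the 762 short loci, 110 were called by limma, 54 higher and 56 lower, where 23.3% of the 6474 loci tested were called. The share of short loci called was 14.4%. By direction, 7.09% were called higher, against 7.92% of all loci tested, and 7.35% lower, against 15.4%. Their median change was -0.04 against -0.08 over all loci tested. Changes among the called loci ran from -2.50 to 2.26.

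The balance between rises and falls depended on the scaling of the libraries. After each library was centred on its median, 68 short loci were higher and 37 lower in LM3, and 87 and 40 in HepG2. Quantile normalization gave 67 and 36 in LM3 and 78 and 40 in HepG2. Rescaling to the sum outside rRNA array and mitochondrial loci gave 63 and 44 in LM3 and 60 and 60 in HepG2. The sign of the LM3 median turned under all 3 scalings (0.04, 0.05 and 0.01). Over all loci tested in LM3 the median was -0.08 as deposited and -0.0003, 0.01 and -0.03 under them. Of the 5035 loci tested in both lines, 272 were called higher in both and 438 lower with the values as deposited. They became 363 and 351 with median centring, 366 and 340 with quantiles, and 289 and 418 with rescaled libraries. The shift was thus not confined to short loci. The share of FPKM on rRNA array and mitochondrial loci was itself higher with JQ1, at 17.1% and 18.1% against 15.3% and 15.9% in HepG2, and at 21.2% and 22.8% against 18.9% and 19.6% in LM3; its part in these counts was not tested further than by the rescaling.

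LXLOC_057991, on an alternate sequence of the MHC, had the largest LM3 rise. It was at 0 in both vehicle libraries and at 1.71 and 2.11 FPKM with JQ1. It thus passed the level rule in LM3 only through its JQ1 group, so its adjusted p is no independent support for the rise. No fold is given against a group at 0. On the log2(FPKM + 0.5) scale the change was 2.26 ± 0.14 (SE), with a limma adjusted p of 0.00564. That SE rests in part on a vehicle group with no spread. In HepG2 the same locus read 9.08 and 12.8 FPKM with vehicle and 14.7 and 20.4 FPKM with JQ1 (limma adjusted p 0.104).

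LXLOC_057765, also on an alternate sequence, rose in LM3 from 0 and 0.550 FPKM to 2.39 and 2.52 FPKM (limma adjusted p 0.0293). With 0.1 as the pseudocount it was not called. Its LM3 vehicle mean was 0.275 FPKM, so it too passed the level rule in LM3 through its JQ1 group. LXLOC_008395 (chr11:54415123-54415421) rose from 3.43 and 2.44 FPKM to 9.22 and 9.93 FPKM, a change of 1.57 ± 0.17 (SE, log2, limma adjusted p 0.0110). In both, the groups of libraries were apart.

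Among LM3 falls, LXLOC_058382 (chrX:1261282-1261621), 7.18 kb from the cytokine receptor gene CSF2RA, went from 3.63 and 3.45 FPKM to 0.840 and 0.650 FPKM (limma adjusted p 0.00582). LXLOC_013792, inside the lncRNA AC089983.1 and opposite the thioredoxin reductase gene TXNRD1, went from 3.90 and 3.66 FPKM to 1.07 and 0.620 FPKM (limma adjusted p 0.0117). AC089983.1 itself was called lower in LM3, at -1.64 beside -1.69 for the short locus, and the overlap leaves the pair uncertain. LXLOC_057295, on a patch sequence, went from 12.6 and 15.3 FPKM to 3.94 and 5.15 FPKM (limma adjusted p 0.0117).

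Without any 1 of the 4 LM3 libraries no short locus was called, and 148 to 240 were at an unadjusted limma p under 0.05. In the full data 212 were, where 40.3% of all loci tested were. In those fits 1 group has a single library, assumed to vary like the other group.

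Changes in the same direction in both lines were found at 51 short loci, 29 higher and 22 lower, where 14.1% of the 5035 loci tested in both lines were called the same way in both. The 51 were 42.9% of the short loci called in HepG2 and 46.4% of those called in LM3. Over all loci tested in both lines these shares were higher, at 59.7% and 64.8%. A further 67 were called in HepG2 alone, 51 of them on the same side of 0 in LM3. Another 58 were called in LM3 alone, 46 of them on the same side of 0 in HepG2. Of the 5035 loci tested in both lines, 1190 were called in HepG2 and 1096 in LM3, 710 of them the same way in both. How many of their remaining calls lay on the same side of 0 was not worked out. The lines share no library.

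**Figure D1:**
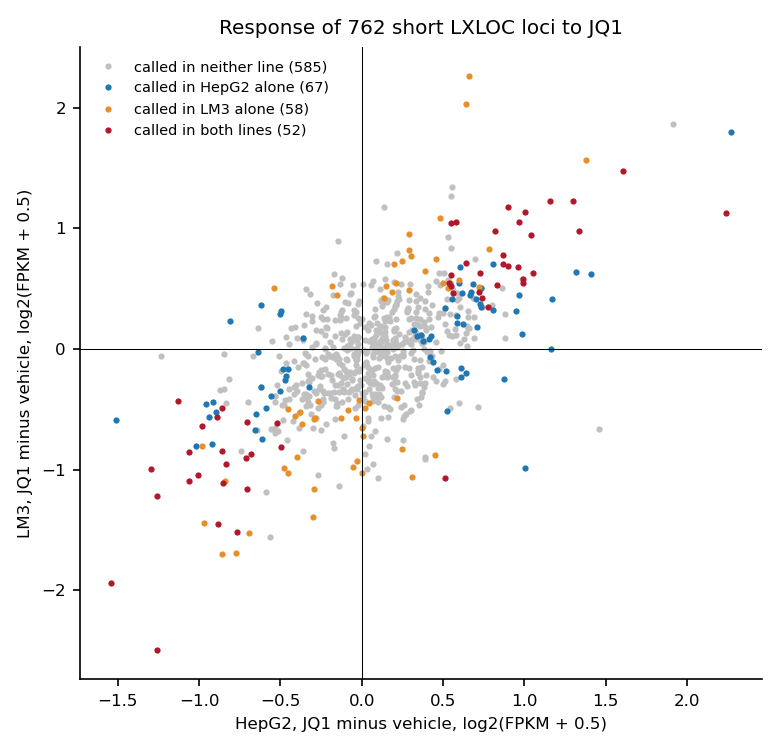
Change with JQ1 in HepG2 (x axis) and LM3 (y axis) on the log2(FPKM + 0.5) scale, 1 point per short locus, coloured by the limma call in each line. The loci called in both lines lie in the upper right (29) and lower left (22), apart from 1 with opposite signs.

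LXLOC_046649 (chr6:33810627-33810919), 6.62 kb from the motilin gene MLN, rose in both lines. In HepG2 it stood at 5.93 and 7.57 FPKM with vehicle and 28.6 and 39.4 FPKM with JQ1. In LM3 the values were 8.95 and 12.04 FPKM against 24.5 and 22.1 FPKM. The groups were apart in both lines, with changes of 2.24 ± 0.20 and 1.13 ± 0.17 (SE, log2) and limma adjusted p of 0.00797 and 0.0187.

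LXLOC_032298 (chr2:88015695-88016537), which covers RNU2-63P, rose by a similar amount in each line. In HepG2 it stood at 1.05 and 0.540 FPKM with vehicle and 2.72 and 4.14 FPKM with JQ1, and in LM3 at 0.890 and 1.30 FPKM against 3.73 and 4.06 FPKM. JQ1 libraries were above vehicle libraries in both. The changes were 1.61 ± 0.27 and 1.47 ± 0.16 (SE, log2), with limma adjusted p of 0.0215 and 0.0110. The locus extends past the pseudogene on its 3′ side, and reads from other U2 copies cannot be told apart here.

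LXLOC_057317, on a patch sequence, rose from 17.4 and 19.7 FPKM to 45.3 and 47.4 FPKM in HepG2 and from 15.6 and 12.6 FPKM to 38.2 and 29.3 FPKM in LM3 (limma adjusted p 0.00615 and 0.0186). LXLOC_033235, in an intron of RAPH1, a gene for an actin-binding protein of cell protrusions, rose from 0.190 and 0.200 FPKM to 0.980 and 1.12 FPKM in HepG2. In LM3 it rose from 0.07 and 0.280 FPKM to 1.38 and 0.800 FPKM (limma adjusted p 0.00838 and 0.0411). The LM3 call was lost with a pseudocount of 0.1. In both lines the locus passed the level rule through its JQ1 group. The locus overlaps ABI2 on the other strand.

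LXLOC_039346 (chr3:55487999-55488323), in an intron of WNT5A on its strand and opposite WNT5A-AS1, fell in both lines. WNT5A encodes a secreted ligand of noncanonical Wnt signalling. The locus stood at 9.90 and 11.03 FPKM in HepG2 with vehicle and 3.32 and 3.22 FPKM with JQ1, and at 2.24 and 2.97 FPKM against 0.130 and 0.520 FPKM in LM3. All JQ1 libraries were below their vehicle libraries. It fell by 1.54 (SE 0.09) in HepG2 and by 1.94 (SE 0.28) in LM3 on the log2 scale, with limma adjusted p of 0.00473 and 0.0178.

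LXLOC_011313 (chr12:9145596-9145951) lies 2.89 kb from PZP, the gene of a protease inhibitor in plasma. It went from 16.0 and 13.6 FPKM to 5.95 and 5.77 FPKM in HepG2 and from 7.17 and 6.06 FPKM to 0.450 and 1.16 FPKM in LM3. The groups were apart, and it fell by 1.26 and by 2.50 on the log2 scale (limma adjusted p 0.00705 and 0.0123). LXLOC_058380, 11.1 kb from CSF2RA, fell from 0.900 and 1.56 FPKM to 0.140 and 0.290 FPKM in HepG2 and from 4.14 and 3.44 FPKM to 1.41 and 1.27 FPKM in LM3 (limma adjusted p 0.0257 and 0.00960). It is the neighbour of LXLOC_058382 above, so these falls may not be separate.

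LXLOC_039651, in an intron of the repressor gene ZBTB20, was called lower in both lines at the edge of the threshold. It read 3.07 and 1.75 FPKM against 1.03 and 0.700 FPKM in HepG2, and 2.94 and 2.27 FPKM against 0.690 and 1.25 FPKM in LM3. The limma adjusted p was 0.0499 and 0.0383, and neither call held after median centring or quantile normalization.

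**Figure D2:**
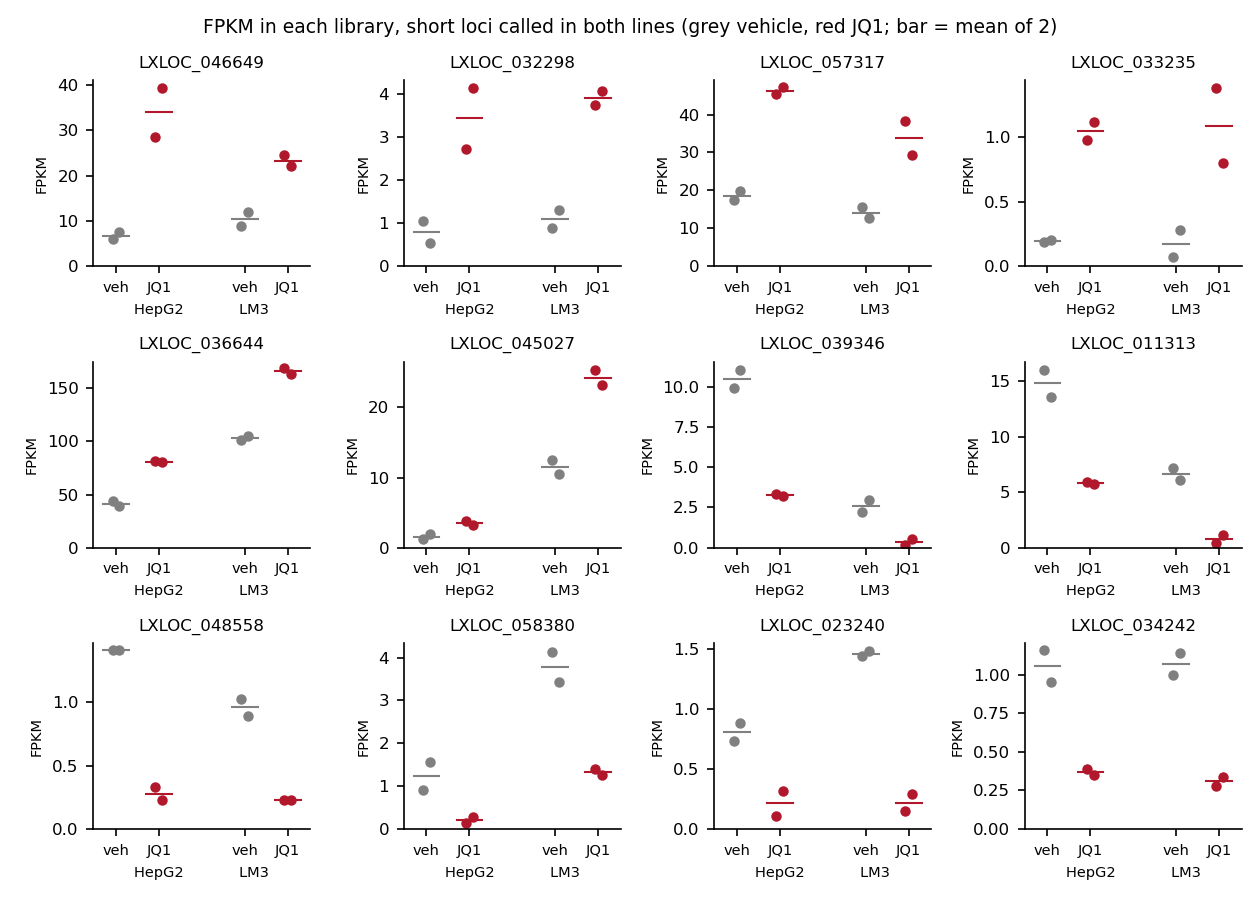
FPKM in each library (y axis, from 0) for 12 short loci called in both lines, with vehicle in grey and JQ1 in red, 2 libraries per group and a bar at their mean. In every panel and line the 2 JQ1 libraries lie wholly above or wholly below the 2 vehicle libraries. This held for all 119 short loci called in HepG2 and all 110 in LM3, so it follows from showing called loci. Some of the 12 were chosen after their values were seen.

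A single short locus was called in opposite directions. LXLOC_016287 (chr14:73707424-73707829), 3.69 kb downstream of the dynein light chain gene DNAL1, rose in HepG2 from 6.42 and 5.69 FPKM to 9.77 and 8.01 FPKM and fell in LM3 from 5.88 and 3.83 FPKM to 2.41 and 1.65 FPKM. The limma adjusted p was 0.0484 and 0.0489, and that of the difference between the responses was 0.18. Both calls were lost after quantile normalization, after rescaling without rRNA array and mitochondrial loci, in limma without trend and robust fitting and with no filter. The LM3 call was also lost after median centring and with a pseudocount of 0.1.

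The test of the difference between lines called none of the 762 short loci (limma over all 8 libraries), where 0.218% of 5035 loci were called, 0.0199% with the LM3 response higher and 0.199% with it lower. At an unadjusted p under 0.05 there were 99 short loci, where 12.0% of all loci tested were, and other settings called between 0 and 2. The smallest adjusted p was 0.0559, at LXLOC_028381 on chromosome 19. It read 0.950 and 0.810 FPKM against 1.21 and 1.07 FPKM with JQ1 in HepG2 and 1.5 and 1.65 FPKM against 0.700 and 0.640 FPKM in LM3.

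LXLOC_054647, inside the lncRNA CASC19 near MYC, was lower with JQ1 in both lines. It went from 6.55 and 6.27 FPKM to 2.54 and 2.77 FPKM in HepG2 and from 64.5 and 64.9 FPKM to 49.7 and 46.1 FPKM in LM3, with groups apart. The LM3 call was lost after quantile normalization. The LM3 response lay 0.70 above that of HepG2 on the log2 scale, with a limma adjusted p of 0.09 that misses the threshold. CASC19 itself was called lower in both lines, at -1.24 and -0.39.

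By position, the 115 short loci in same-strand introns of coding genes had 18 higher and 11 lower in HepG2 and 15 and 11 in LM3. Their shares called, 25.2% and 22.6%, lay near the 25.1% and 23.3% of all loci tested. The 76 opposite a coding gene had 1 higher and 5 lower in HepG2 and 3 and 6 in LM3. The 79 within 5 kb downstream of a gene had 8 and 9 in HepG2 and 7 and 3 in LM3. The 261 with none of these positions had 29 and 13 in HepG2 and 13 and 26 in LM3. No test was made between classes.

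**Figure D3:**
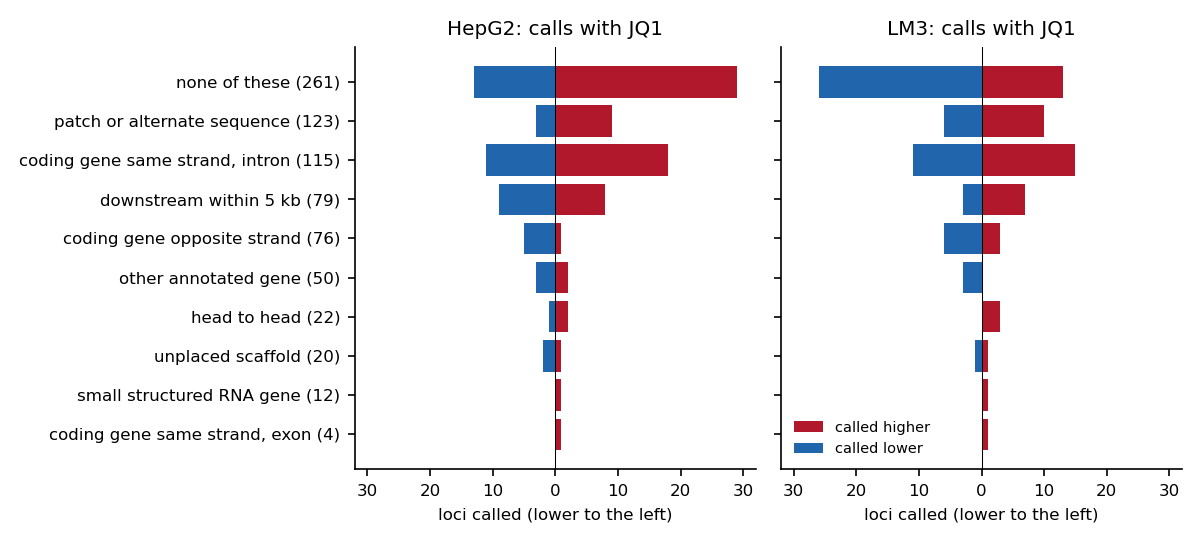
Number of short loci called higher (right, red) and lower (left, blue) with JQ1 in each position class, with the size of the class in brackets, in HepG2 and LM3. The 115 loci in same-strand introns of coding genes were called in 25.2% of cases in HepG2 and 22.6% in LM3, near the 25.1% and 23.3% of all loci tested.

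Downstream loci called in both lines included LXLOC_023240, past HEXIM2, whose protein holds the elongation factor P-TEFb in an inactive complex. It fell from 0.730 and 0.880 FPKM to 0.110 and 0.320 FPKM in HepG2 and from 1.44 and 1.48 FPKM to 0.15 and 0.290 FPKM in LM3 (limma adjusted p 0.0358 and 0.00960). LXLOC_023807, past NARF, rose from 0.330 and 0.270 FPKM to 0.830 and 1.17 FPKM and from 0.140 and 0.140 FPKM to 0.860 and 1.04 FPKM (limma adjusted p 0.0207 and 0.0135). Both were chosen after their values were seen.

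Few loci lay far from any annotated gene, and their calls depended on the distance taken. Of 26 at 100 kb or more from a gene, 10 were higher and 0 lower in HepG2, and 6 higher and 1 lower in LM3. The 26 include the 3 loci of the chromosome 22 run described below, which may be pieces of 1 transcript. All 3 were called higher in HepG2 and 2 in LM3. Of 38 at 50 kb or more, 12 were higher and 2 lower in HepG2, and 6 and 2 in LM3. Of 66 at 20 kb or more, 12 were higher and 3 lower in HepG2, and 6 higher and 10 lower in LM3. Of all loci tested, 10.8% were called higher and 14.2% lower in HepG2, and 7.92% and 15.4% in LM3. These distances were chosen after the values were seen, and no test is given. LXLOC_045026 and LXLOC_045027 (chr5:49612288-49612606 and chr5:49626450-49627151) are among them. LXLOC_045027 rose from 1.26 and 1.88 FPKM to 3.85 and 3.19 FPKM in HepG2 and from 12.5 and 10.5 FPKM to 25.4 and 23.2 FPKM in LM3. LXLOC_021835 (chr16:38266942-38267394) rose from 1.68 and 1.25 FPKM to 2.89 and 3 FPKM and from 10.1 and 9.06 FPKM to 18.8 and 19.8 FPKM. Repeated sequence near centromeres is common in such stretches, and whether reads mapped to several places was not tested.

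Short loci also stood in runs. A run holds loci of 1 strand with gaps of at most 10 kb, and 179 loci formed 79 runs of up to 5. All changes of a run were on 1 side of 0 in 55 runs in HepG2 and 52 in LM3. Only 16 runs had 3 or more loci, with all on 1 side in 9 of them in HepG2 and 8 in LM3. The share of runs expected on 1 side was not worked out. No run held calls in both directions, but only 7 runs in HepG2 and 9 in LM3 held 2 or more calls. Loci of a run may be pieces of 1 transcript and are not independent.

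In a run on chromosome 22 (chr22:15048896-15054301), all 3 loci were higher in HepG2 and 2 in LM3. Its middle locus, LXLOC_036644, was among the 6 most abundant, at 44.1 and 38.9 FPKM against 81.6 and 80.7 FPKM in HepG2 and 102 and 106 FPKM against 169 and 164 FPKM in LM3. The groups were apart, with changes of 0.96 ± 0.09 and 0.68 ± 0.08 (SE, log2) and limma adjusted p of 0.00797 and 0.0117.

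Runs of 4 loci lay in introns of STAG3, a gene for a meiotic cohesin subunit that overlaps CASTOR3 on the other strand, and of the coding gene AC093668.2. In the STAG3 run, changes lay between 0.53 and 0.78 in HepG2, with 2 of 4 called, and between 0.35 and 0.57 in LM3, with 3 called. In the AC093668.2 run they lay between 0.50 and 0.71 in HepG2, with 3 of 4 called, and between 0.18 and 0.55 in LM3, with 2 called. Within SNHG4, a snoRNA host gene, and introns of MATR3, opposite SIL1, 2 of 3 loci were called lower in HepG2 and none in LM3, and SNHG4 itself was called lower in HepG2 at -0.50.

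**Figure D4:**
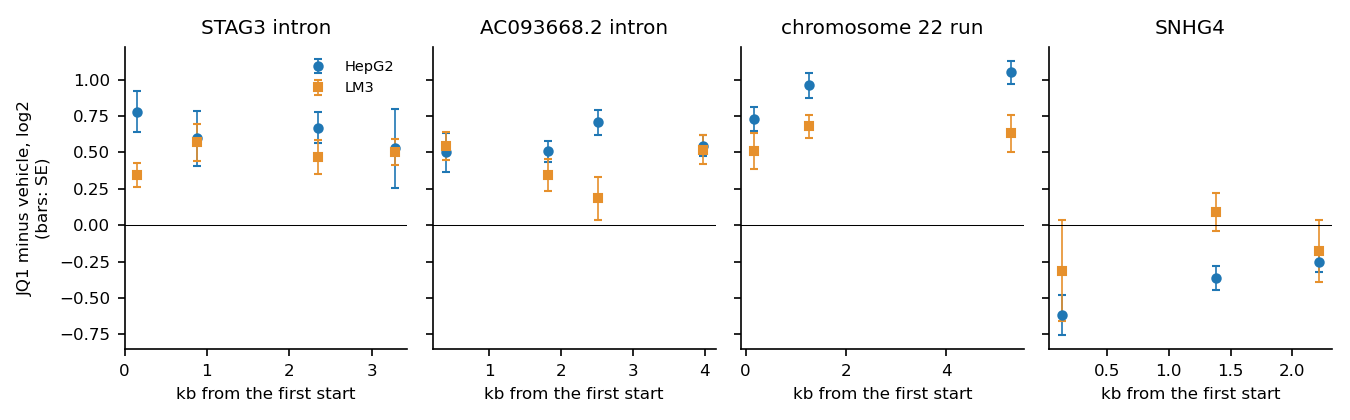
Change with JQ1 (log2, y axis; bars are SE) of each locus in 4 runs, against the distance of its centre from the first start of the run (x axis, kb), in HepG2 and LM3. The chromosome 22, STAG3 and AC093668.2 loci lie above 0 in both lines, and the SNHG4 loci lie below 0 in HepG2. The runs were chosen after their values were seen.

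Of the short loci, 59 overlapped an Ensembl locus of the tables on the same strand. In HepG2, 31 of 40 such pairs with both fitted lay on the same side of 0, and in LM3 30 of 44. The pairs may share reads.

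Promoters were entered by 39 short loci, which shared bases with 51 RefSeq windows running from 250 bases before to 50 after a gene's start. Of the 39, 5 were called in either line, beside 177 of all 762. Of all loci tested, 25.1% were called in HepG2 and 23.3% in LM3, and their share called in either line was not worked out. The windows had a median GC content of 66.7%, against 58.7% over all 35116 windows, and a median of 28 CG pairs against 14. The GC box GGGCGG, searched on both strands, was in 70.6% of them and in 45.0% of all windows, and the CCAAT box CCAAT in 35.3% and 34.6%. These letters are a description of the windows and not of any factor's binding.

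LXLOC_048558 (chr6:78867022-78867481) shares 181 bases with the IRAK1BP1 window printed above and 41 with the same-strand window of LOC107986613, and fell in both lines. It stood at 1.41 and 1.41 FPKM with vehicle and 0.330 and 0.230 FPKM with JQ1 in HepG2, and at 1.03 and 0.890 FPKM against 0.230 and 0.230 FPKM in LM3. The groups were apart, and it fell by 1.29 and by 1.00 on the log2 scale (SE 0.11 and 0.13, limma adjusted p 0.00705 and 0.0150).

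LXLOC_034242 (chr20:62795330-62796312), which shares 90 bases with the MRGBP window, fell from 1.16 and 0.950 FPKM to 0.390 and 0.350 FPKM in HepG2 and from 1.00 and 1.14 FPKM to 0.280 and 0.340 FPKM in LM3 (limma adjusted p 0.0135 and 0.0147). LXLOC_055043 (chr9:33474141-33474379) lies at the NOL6 promoter and at the same-strand start of LOC107987061. It rose in LM3 from 0.480 and 0.610 FPKM to 1.29 and 1.17 FPKM (limma adjusted p 0.0230). In HepG2 it read 1.04 and 1.25 FPKM against 0.960 and 2.09 FPKM, and the groups overlapped. LXLOC_014725, which shares 183 bases with the window of the transcription factor gene ZIC2, rose in LM3 from 0.75 and 1.07 FPKM to 2 and 1.94 FPKM (limma adjusted p 0.0252).

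Small structured RNA genes lay in 12 short loci, 10 of them transfer RNA genes, whose strand is not given in the table used. LXLOC_032298 was the only 1 of the 12 called, in both lines. The most abundant, LXLOC_015654 at the proline tRNA gene TRP-TGG1-1, read 18.9 and 13.5 FPKM with vehicle and 16.3 and 19.7 FPKM with JQ1 in HepG2, and 17.4 and 16.9 FPKM against 16.0 and 15.9 FPKM in LM3. The HepG2 groups overlapped and the LM3 groups did not, with limma adjusted p of 0.581 and 0.363.

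Nuclear copies of mitochondrial genes formed a run of 4 loci on chromosome 1 (chr1:629084-634216, minus strand), opposite to MTND1P23, MTND2P28, MTCO1P12 and MTATP6P1 and on the strand of AL669831.3. These copies were 98.1% to 98.7% identical to the mitochondrial genes over the aligned bases. LXLOC_002800 read 117 and 94.9 FPKM against 110 and 110 FPKM in HepG2 and 58.1 and 47.4 FPKM against 39.0 and 79.0 FPKM in LM3, and its groups overlapped in both lines. None of the 4 was called. Fragments of mitochondrial RNA cannot be told apart from these copies where the bases agree.

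Replicates of short loci were farther apart than those of other loci at every level. The median residual SD was 0.19 for short loci in HepG2, against 0.11 over all loci tested, and 0.21 against 0.12 in LM3. From 10 FPKM up it was 0.12 against 0.07 in HepG2 and 0.16 against 0.08 in LM3. It was larger for shorter loci, at 0.31 for spans from 200 to under 300 bp and 0.15 for spans of 700 bp or more in HepG2. The groups of libraries did not overlap at 52.5% of short loci in HepG2, where 66.4% of all loci tested did not, and at 51.3% in LM3, where 66.7% did not. At the 119 and 110 short loci called, the groups never overlapped, so groups apart add nothing to a call.

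**Figure D5:**
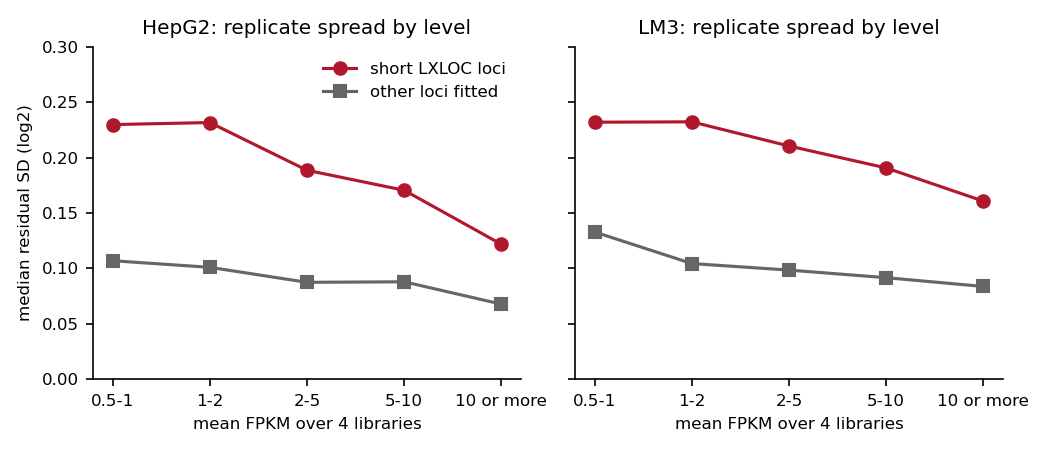
Median residual SD of log2(FPKM + 0.5) between libraries of a group (y axis) by mean FPKM over the 4 libraries of a line (x axis), for short loci (red) and all other loci fitted (grey). At each level in both lines the short loci lie above the others.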

How the data were processed

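FPKM values, rounded to 2 decimals, were deposited by the authors in 1 table per cell line, per the file headers. The submitters' processing notes name Bowtie 0.12.2, hg19 and mm8 without a role. Of 9585 Ensembl loci with values, 8463 were found in GENCODE 29, 99.9% of them on the same chromosome and 83.9% with the same start, so the build was taken as GRCh38. No source used here states how fragments were counted, whether strand was used, or where the LXLOC models came from.

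JQ1 was compared with vehicle within each line in limma 3.58.1 (R 4.3.3, trend and robust fitting) on log2(FPKM + 0.5), over loci whose 4 libraries of that line averaged 0.5 FPKM or more. The pseudocount understates the change of low loci. A locus with a group mean under 0.5 FPKM passed the level rule through its other group. Whether it rose or fell, its adjusted p is then weaker support. Tests were two-sided, with Benjamini-Hochberg adjustment over all loci fitted and a threshold of 0.05. The difference between the responses was fitted over all 8 libraries. FPKM are not counts, so no count model was run. The fit was tested on simulated data. A first single draw for LM3 gave more false calls than the limit then set, and the test was changed to the mean over repeated draws, which it passed. The simulation drew the spread of all loci from the same distribution. It did not give short loci their larger replicate spread, so it cannot tell how many of their calls are false. Tables were prepared with Python 3.11.15, pandas 2.3.3 and numpy 2.4.6, sequences aligned with Biopython 1.88 and figures drawn with matplotlib 3.10.9.

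The short loci, lists and naming rule were chosen with earlier results of these data known. Named loci were the 6 most abundant, the 5 largest rises and 5 largest falls per line among called loci with groups apart, the 4 loci per shared direction whose smaller change was largest, opposite calls, the 3 smallest adjusted p per direction for the difference, and up to 8 loci at small structured RNA genes. Other loci in the text were chosen after their values were seen. Alternatives were other pseudocounts, filters and scalings, limma without trend, a replicate block, each library left out, and subsets of the loci. The loci across a same-strand exon of a coding gene are not reported here.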

Additional observations from a re-analysis of the deposited data

How the results depend on the processing

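The counts of short loci called, 119 in HepG2 and 110 in LM3, stayed within 1.5 times under both other pseudocounts, the filter at 1 FPKM, the 3 scalings and limma without trend and robust fitting. With no filter on low values they were 23 and 24, where 819 and 825 of all 15469 loci were called. Leaving out 1 library at a time gave 0 to 58 in HepG2 and 0 to 0 in LM3; with fewer samples each such fit has 1 residual degree of freedom fewer. Among the 395 loci under 500 bp the counts were 50 and 53, and among the 378 loci free of overlaps 60 and 47. On the chromosomes alone, a subset of 619 chosen after seeing the data, they were 104 and 92. Of all loci tested, 25.1% were called in HepG2 and 23.3% in LM3. For the difference between lines the count was 0, and it was 1 with a pseudocount of 0.1, 1 with a pseudocount of 1, 1 with no filter, 2 after median centring and 1 after rescaling.

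With the replicate number as a replicate block the counts were 156 in HepG2 and 112 in LM3, and 0 for the difference. Over all loci tested they were 1453 of 5906 in HepG2 and 1215 of 6474 in LM3, and 0 for the difference. Calls at LXLOC_032298 in HepG2 and at LXLOC_033235, LXLOC_039651 and LXLOC_015879 in LM3 were not made in that fit. Libraries with the same number did not deviate together in HepG2 (correlation -0.03) and did so weakly in LM3 (0.13), with 2 pairs per line, so they share a number and no pairing was assumed. No called named locus changed sign under any setting run. Outside the fits that leave a library out, 50 of the named values lost their call and 15 gained one, most of the losses with no filter. HepG2 calls lost with no filter included LXLOC_000968, LXLOC_046649, LXLOC_032298, LXLOC_004089, LXLOC_057825, LXLOC_055632, LXLOC_011313, LXLOC_058380, LXLOC_036644, LXLOC_039651 and LXLOC_048674. Those at LXLOC_039346, LXLOC_048558, LXLOC_033235, LXLOC_057317 and LXLOC_054647 were kept. FPKM without counts leave the counting error of each locus unknown.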

Other observations

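The MHC alternates held 33 of the short loci. LXLOC_057951 was the most abundant of them, at 226 and 188 FPKM with vehicle and 175 and 170 FPKM with JQ1 in HepG2, and at 106 and 127 FPKM against 88.9 and 110 FPKM in LM3. It was called in neither line (limma adjusted p 0.164 and 0.332), and its groups overlapped in LM3. LXLOC_058106 rose in LM3 from 7.62 and 6.97 FPKM to 11.1 and 10.2 FPKM (limma adjusted p 0.0283), while HepG2 read 4.04 and 3.96 FPKM against 3.48 and 3.44 FPKM. LXLOC_058121 fell in LM3 from 4.77 and 4.81 FPKM to 1.77 and 2.21 FPKM, a change of -1.09 on the log2 scale. It was chosen after its values were seen.

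Neighbouring loci on opposite strands moved apart at 1 place on chromosome 13. LXLOC_015526 (chr13:109265424-109265696, minus strand) fell from 4.52 and 5.42 FPKM to 2.48 and 2.93 FPKM in HepG2 and from 8.64 and 7.44 FPKM to 2.09 and 2.94 FPKM in LM3. LXLOC_014780 (chr13:109266674-109266956, plus strand) rose from 70.5 and 77.4 FPKM to 132 and 115 FPKM in HepG2 and from 30.4 and 31.5 FPKM to 43.9 and 39.4 FPKM in LM3. Groups were apart at both loci in both lines. The limma adjusted p was 0.0207 and 0.0119 for the first and 0.0141 and 0.0423 for the second. Each overlaps another listed locus on both strands, so the values are uncertain. The pair was chosen after its values were seen.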
